A study of Homo sapiens with 9 samples.

Results

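The accessible sites of human chromosome 21 were examined in HEK293T cells, an established embryonic kidney line, in 4 ATAC-seq peak lists. ATAC-seq marks open chromatin by the insertion of adapters with the Tn5 transposase. The sites were selected by position alone, as every peak placed on chromosome 21, and they numbered 2551 of 194414 peaks in the 4 lists. The chromosome itself was chosen from its share of the IGF2BP3 knockout list, so that share and all differences between that list and the others are descriptions and carry no test. The control group carried a non-targeting guide and was made from 2 libraries. The IGF2BP1 knockout was made from 3 libraries, and the IGF2BP2 and IGF2BP3 knockouts from 2 libraries each, all from untreated cells. Each knockout was 1 clone grown from a single sorted cell after transient transfection of plasmids with 3 guides against the gene, so effects of the genotype and of the clone cannot be told apart. The labels place libraries of batches 2 and 3 in every group, and a library of batch 1 in the IGF2BP1 knockout alone. Each group has 1 deposited list, with positions and no heights, so no spread between replicates and no read depth was known. Where 4 values follow each other below, they stand in the order control, IGF2BP1, IGF2BP2 and IGF2BP3 knockout.

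Chromosome 21 is a small acrocentric chromosome. Its short arm carries ribosomal RNA gene repeats and sequence shared with other acrocentric short arms. Its long arm begins with a gene-poor stretch around NCAM2 and ends in gene-rich bands that hold the interferon receptor genes, RUNX1, and clusters of keratin-associated protein genes. IGF2BP1, IGF2BP2 and IGF2BP3 are RNA-binding proteins of fetal tissues and tumours that bind and stabilise messenger RNAs, and none of them is a chromatin protein. The edit itself is not checked by peaks. The start of IGF2BP3 on chromosome 7 had a peak in the control and IGF2BP1 knockout lists and none in the other lists. The start of IGF2BP2 had a peak in every list. IGF2BP1, judged by either gene end and not by its start, also had one in every list. Of the kidney transcription factors, PAX2 and LHX1 had a peak at a start or end in every list, and EYA1 had one in the IGF2BP3 knockout list alone. The neuronal genes NEFL, NEFM and GAP43 and the blood cell genes CD34 and SPI1 also had one in every list. PTPRC, which marks white blood cells, and the neuronal gene STMN2 had none.

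The promoters below show the kinds of start site at which the lists differed. Each runs from 250 bases before to 50 bases after an annotated start (RefSeq, GRCh38.p14), 5′ to 3′ on the strand of the gene, and capitals mark CpG dinucleotides. The first 4 are the chromosome 21 promoter windows covered by a peak of the IGF2BP3 knockout list alone. KRTAP11-1, KRTAP10-2 and KRTAP10-10 encode keratin-associated proteins of the hair shaft, and DSCR9 is a non-coding transcript.
KRTAP11-1 (chr21:30881531-30881830, minus strand): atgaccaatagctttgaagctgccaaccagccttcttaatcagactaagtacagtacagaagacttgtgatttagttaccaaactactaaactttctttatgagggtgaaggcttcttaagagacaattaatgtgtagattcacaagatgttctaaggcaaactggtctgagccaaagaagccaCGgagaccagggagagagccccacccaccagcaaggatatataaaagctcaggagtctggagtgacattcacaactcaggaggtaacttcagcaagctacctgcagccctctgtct
KRTAP10-2 (chr21:44551456-44551755, minus strand): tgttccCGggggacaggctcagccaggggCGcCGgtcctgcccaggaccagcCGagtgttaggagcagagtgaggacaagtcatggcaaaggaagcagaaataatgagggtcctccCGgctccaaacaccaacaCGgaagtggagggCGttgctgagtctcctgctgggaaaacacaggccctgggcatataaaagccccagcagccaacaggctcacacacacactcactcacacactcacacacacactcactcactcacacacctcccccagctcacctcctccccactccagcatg
KRTAP10-10 (chr21:44637106-44637405, plus strand): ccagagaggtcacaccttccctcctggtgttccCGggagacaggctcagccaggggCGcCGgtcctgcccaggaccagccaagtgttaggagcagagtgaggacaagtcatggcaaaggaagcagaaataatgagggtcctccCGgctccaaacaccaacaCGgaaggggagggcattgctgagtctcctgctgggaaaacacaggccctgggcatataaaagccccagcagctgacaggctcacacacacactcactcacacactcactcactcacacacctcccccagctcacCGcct
DSCR9 (chr21:37208253-37208552, plus strand): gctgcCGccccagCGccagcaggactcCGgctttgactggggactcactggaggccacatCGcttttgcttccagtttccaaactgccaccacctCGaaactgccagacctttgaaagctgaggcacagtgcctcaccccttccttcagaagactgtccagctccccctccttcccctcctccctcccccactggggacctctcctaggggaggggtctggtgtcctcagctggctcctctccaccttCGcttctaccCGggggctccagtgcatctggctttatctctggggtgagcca
The next was covered in the IGF2BP1 and IGF2BP3 knockout lists only. CBS encodes cystathionine beta-synthase, which turns homocysteine into cystathionine.
CBS (chr21:43076328-43076627, minus strand): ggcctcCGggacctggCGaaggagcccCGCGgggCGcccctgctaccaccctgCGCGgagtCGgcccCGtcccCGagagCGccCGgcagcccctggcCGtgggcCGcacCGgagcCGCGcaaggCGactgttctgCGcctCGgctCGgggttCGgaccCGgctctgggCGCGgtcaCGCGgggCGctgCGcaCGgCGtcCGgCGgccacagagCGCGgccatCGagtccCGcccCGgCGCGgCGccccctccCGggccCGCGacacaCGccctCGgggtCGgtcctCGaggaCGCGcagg
The last was covered in all 4 lists. IFNAR1 encodes a chain of the type I interferon receptor.
IFNAR1 (chr21:33324720-33325019, plus strand): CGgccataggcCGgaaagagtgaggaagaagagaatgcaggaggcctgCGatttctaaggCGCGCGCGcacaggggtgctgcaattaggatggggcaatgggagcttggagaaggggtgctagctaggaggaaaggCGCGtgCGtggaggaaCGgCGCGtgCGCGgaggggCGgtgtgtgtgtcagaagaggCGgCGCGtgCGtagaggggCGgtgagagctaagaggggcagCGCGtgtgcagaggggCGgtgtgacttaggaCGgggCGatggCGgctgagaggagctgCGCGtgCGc

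The 4 promoter windows covered in the IGF2BP3 knockout list alone held 1 CpG (KRTAP11-1), 7 (KRTAP10-2), 6 (KRTAP10-10) and 7 (DSCR9). They made up 0.820% of 488 chromosome 21 promoter windows, against a background of 0.529% of 34961 windows in the genome. The CBS window held 50 CpGs and the IFNAR1 window 30. On chromosome 21, the 164 windows covered in all 4 lists had a median of 30.5 CpGs and a median GC content of 70.2%. They were 33.6% of the windows, against a background of 44.8%. The 293 windows covered in no list had a median of 4 CpGs and 47.7% GC, and were 60.04% of the windows, against a background of 48.1%. The median of the 4 windows, 6.5 CpGs, was thus closer to that of the uncovered windows. The ranges overlapped, from 1 to 57 CpGs in the covered and from 0 to 53 in the uncovered windows. The letters TATAAA, searched on both strands, were in the windows of KRTAP11-1, KRTAP10-2 and KRTAP10-10 and not in that of DSCR9. They were in 18.9% of all chromosome 21 windows, 26.6% of those covered in no list, and 11.5% of those of the genome. Over the genome, 185 windows were covered in the IGF2BP3 knockout list alone. Of these, 8.65% held TATAAA, and their median was 11 CpGs, so the letters were not frequent in such windows elsewhere. GGGCGG was in 75.6% of chromosome 21 windows covered in all 4 lists, and among the 4 windows it was found in DSCR9 alone. The KRTAP10 genes are near-identical copies, so reads could have been placed at the wrong copy and the position of these peaks is uncertain.

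The control list held 483 peaks on chromosome 21, 1.23% of the list (Wilson 95% interval 1.13 to 1.35%, counting error over peaks only). The IGF2BP1 knockout list held 642, or 1.26% (1.17 to 1.36%). The IGF2BP2 knockout list held 714, or 1.18% (1.10 to 1.27%). The IGF2BP3 knockout list held 712, or 1.62% (1.503 to 1.739%). It thus had nearly as many chromosome 21 peaks as the IGF2BP2 knockout list, although that list was the longest with 60262 peaks against 44041. Its share was 1.31 times that of the control, which ranked 2 among 23 chromosomes, after chromosome 13 with 1.67. Covered sequence came to 441 kb in the control, 626 kb in the IGF2BP1 knockout, 548 kb in the IGF2BP2 knockout and 587 kb in the IGF2BP3 knockout.

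Median peak width on chromosome 21 was 793, 844.5, 656 and 692 bp in that order of lists. On all other sequences, the medians were 771, 834, 651 and 713 bp in the same order. The IGF2BP3 knockout was the only list in which the chromosome 21 median lay below that of the rest. Peaks wider than 1 kb made up 33.5% of the chromosome 21 peaks in the control, 37.1% in the IGF2BP1 knockout, 21.8% in the IGF2BP2 knockout and 25% in the IGF2BP3 knockout. The widest peak measured 3437, 3448, 3466 and 3415 bp in the same order, so the upper end of the range was alike in the lists.

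Peaks were counted in windows of 5 Mb by their midpoint. No list had a peak in the first 5 Mb, and the first peaks started between 5021805 and 5021926. The window from 5 to 10 Mb, on the short arm, held 82 peaks in the control, 81 in the IGF2BP1 knockout, 113 in the IGF2BP2 knockout and 82 in the IGF2BP3 knockout. From 10 to 15 Mb, the counts were 18, 19, 33 and 26 in that order, and from 15 to 20 Mb they were 30, 47, 78 and 65. The fewest peaks were in the window from 20 to 25 Mb around NCAM2, a neural adhesion gene, with 5, 8, 25 and 17. This window held 1 protein-coding gene, and the IGF2BP2 and IGF2BP3 knockout lists stood above the other 2 in it.

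From 25 to 30 Mb, where APP, ADAMTS1 and ADAMTS5 lie, the counts were 39, 51, 58 and 63. From 30 to 35 Mb, which holds 74 protein-coding genes including the interferon receptors, they were 92, 121, 116 and 134. From 35 to 40 Mb, which holds DYRK1A, KCNJ6 and ERG, they were 73, 116, 102 and 130. The IGF2BP3 knockout list was the highest of the 4 in each of these 3 windows. From 40 to 45 Mb, the counts were 102, 139, 130 and 137, and in the last window, from 45 Mb on, 42, 60, 59 and 58.

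**Figure D1:**
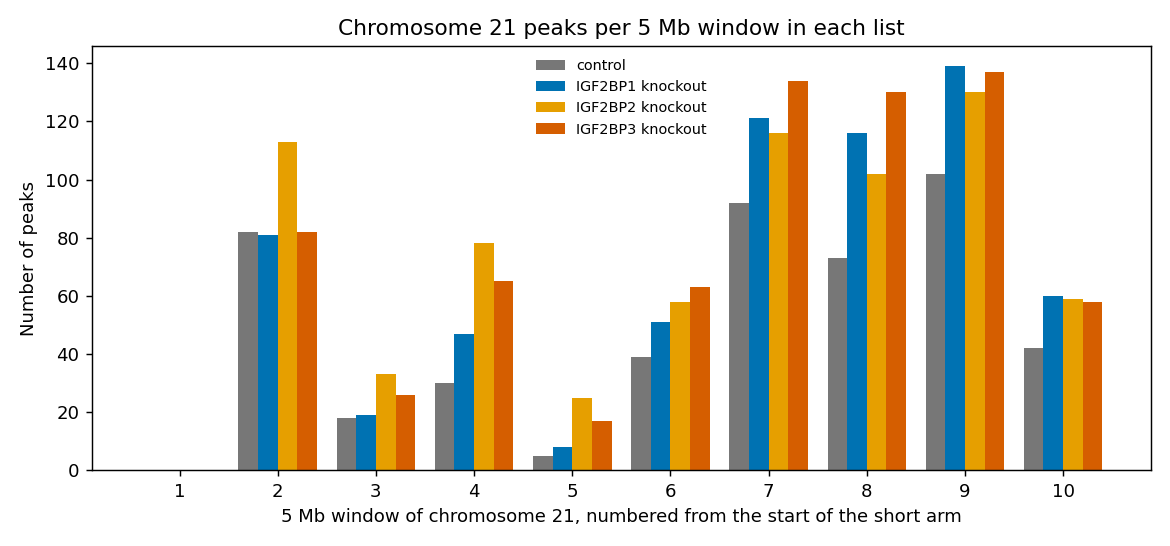
Number of chromosome 21 peaks (vertical axis) in each 5 Mb window (horizontal axis, numbered from the start of the short arm) in the 4 lists. The IGF2BP3 knockout list had the most peaks in windows 6, 7 and 8, and equalled the control at 82 in window 2.

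The lists differ in length, so each window's share of its list was compared with its share of the control list on the log2 scale, with a pseudocount of 0.5 peaks. In the IGF2BP3 knockout, the log2 ratio of shares was -0.17 in the window from 5 to 10 Mb and positive in the other 8. It was highest in the window from 20 to 25 Mb, at 1.502, where it rests on 17 peaks against 5. The next were 0.93 from 15 to 20 Mb, 0.66 from 35 to 40 Mb and 0.52 from 25 to 30 Mb. The lowest value on the long arm was 0.26, from 40 to 45 Mb. Over the genome, 48.1% of 5 Mb windows had a higher share in the IGF2BP3 knockout than in the control list.

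In the IGF2BP2 knockout, the log2 ratio to control was 1.59 from 20 to 25 Mb and 0.74 from 15 to 20 Mb, but it lay between -0.29 and -0.05 in the 5 windows from 25 Mb on. In the IGF2BP1 knockout, it lay between -0.40 and 0.29. Set directly against the IGF2BP2 knockout, the IGF2BP3 knockout was near equal from 5 to 25 Mb, with log2 ratios between -0.09 and 0.19. From 25 Mb to the end, it was higher, between 0.43 and 0.80. Set against the IGF2BP1 knockout, it was higher in all 9 windows, from 0.16 in the last to 1.25 from 20 to 25 Mb. The background shares of genome windows higher in the IGF2BP3 knockout were 46.4% against the IGF2BP1 and 48.9% against the IGF2BP2 knockout list. All knockouts were set against the same control list, so their ratios to it are not independent.

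**Figure D2:**
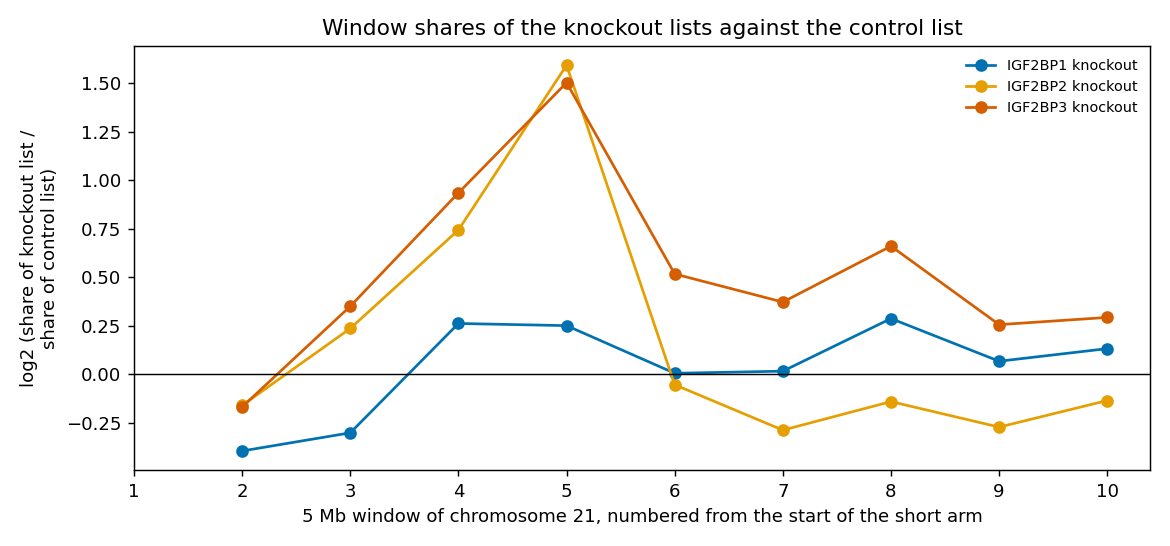
Log2 ratio of each knockout list's share of peaks to the control list's share (vertical axis) by 5 Mb window of chromosome 21 (horizontal axis). The IGF2BP3 knockout lies above 0 in windows 3 to 10, while the IGF2BP2 knockout is above 0 in windows 3 to 5 and below 0 in windows 6 to 10.

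Median widths also varied by window. In the IGF2BP3 knockout, they ranged from 511 bp (20 to 25 Mb) to 814.5 bp (5 to 10 Mb). In the IGF2BP2 knockout, they ranged from 506 bp (20 to 25 Mb) to 728 bp (45 Mb on). In the control, the lowest was 636.5 bp (10 to 15 Mb) and the highest 911.5 bp (5 to 10 Mb), and the IGF2BP1 knockout had its lowest (732 bp) and its highest in the same windows. From 35 to 40 Mb, where the IGF2BP3 knockout had the largest surplus of peaks over the control, its median was 612 bp, against 766 bp in the control.

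Merging overlapping peaks of the 4 lists gave 953 regions on chromosome 21. All 4 lists held 385 of them (40.4%), close to the background of 41.5% of the 71597 regions of the genome. The IGF2BP3 knockout list alone held 118 (12.4%, Wilson 95% interval 10.4 to 14.6%), against a background of 4.90% of genome regions. This was the highest share among 23 chromosomes, followed by chromosome 13 with 9.93% and X with 9.07%. The IGF2BP2 knockout list alone held 104 (10.9%, background 15.2%), the IGF2BP1 knockout list alone 55 (5.77%, background 6.03%), and the control list alone 13 (1.36%, background 1.98%).

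Regions that the IGF2BP3 knockout list shared with a single other list were also more frequent on chromosome 21 than elsewhere. The control and IGF2BP3 knockout lists alone held 16 regions (1.68%, background 0.531%), and the IGF2BP1 and IGF2BP3 knockout lists alone held 28 (2.94%, background 1.33%). All 3 knockout lists without the control held 91 (9.55%, background 6.88%). The IGF2BP2 and IGF2BP3 knockout lists alone held 40 (4.197%, against 3.49% on other sequences). Conversely, 21 regions (2.20%, background 5.15%) were missing from the IGF2BP3 knockout list only. These shares follow from the same excess of peaks that led to the choice of the chromosome, and they were not tested.

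**Figure D3:**
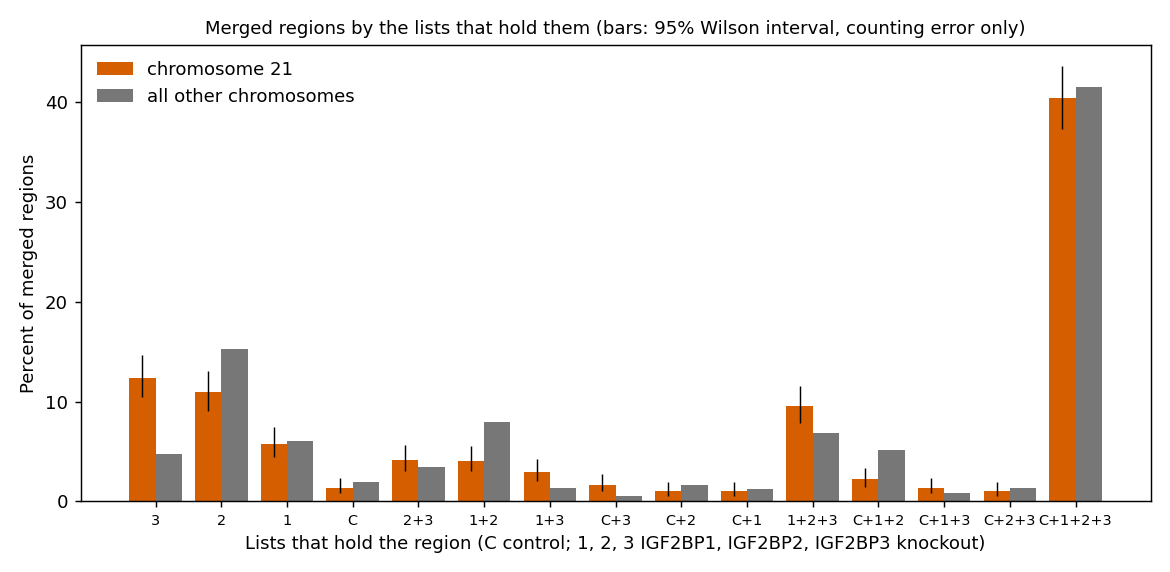
Percent of merged regions (vertical axis) by the combination of lists that hold them (horizontal axis), on chromosome 21 and on all other sequences. Whiskers give Wilson 95% intervals for chromosome 21, and the largest gap is in the IGF2BP3 knockout alone, at 12.4% against 4.80%.

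Of the 712 IGF2BP3 knockout peaks on chromosome 21, 281 (39.5%, background 27.2%) overlapped no control peak, 185 (26.0%, background 16.8%) no IGF2BP1 knockout peak and 180 (25.3%, background 12.7%) no IGF2BP2 knockout peak. In the opposite direction, 55 of 483 control peaks (11.4%) had no counterpart in the IGF2BP3 knockout list, against 18.6% on other sequences.

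The 118 sites of the IGF2BP3 knockout list alone were narrow. Their widths ran from 228 to 1191 bp with a median of 533 bp. Their median lay at percentile 27.5 of the widths in that list, and 27 of the 118 were wider than the list's median peak. Regions that the list shared with 1 or 2 others (198) had a median width in it of 570.5 bp, and those in all 4 lists a median of 882 bp. On other chromosomes, regions of the IGF2BP3 knockout list alone had a median width of 485 bp. Chromosome 21 regions of another single list had medians of 551 bp (control), 633 bp (IGF2BP1 knockout) and 478 bp (IGF2BP2 knockout). A small width was thus not particular to the sites of the IGF2BP3 knockout.

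**Figure D4:**
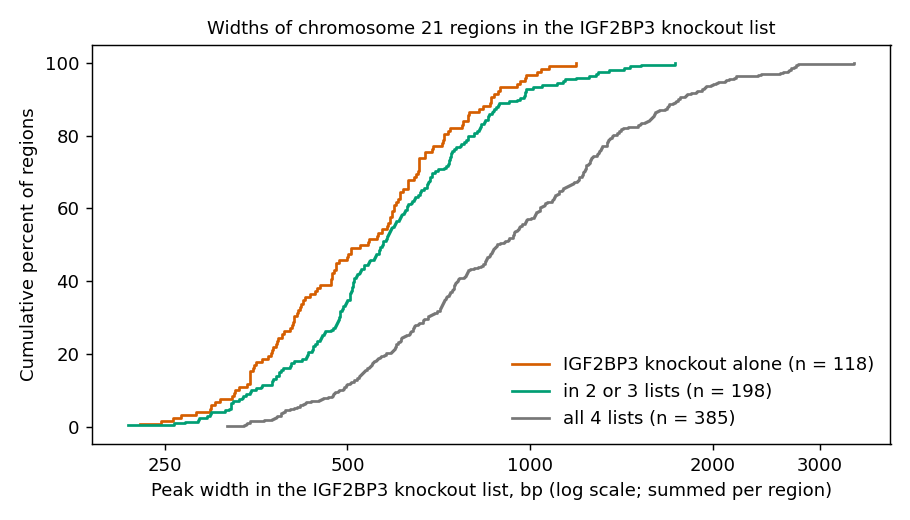
Cumulative percent of chromosome 21 regions (vertical axis) by their peak width in the IGF2BP3 knockout list (horizontal axis, log scale). Regions of that list alone have a median of 533 bp, those in 2 or 3 lists 570.5 bp and those in all 4 lists 882 bp.

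Few of these sites lay at the edges of peaks of other lists. The median distance to the nearest peak of any other list was 20.1 kb, the largest was 659 kb, and 113 of 118 sites lay at least 1 kb away. No such distances are given for other chromosomes or for regions of another single list, so whether these are unusual is unknown. The closest of the 118 lay 319 bp from an IGF2BP1 knockout peak, at chr21:26965520-26966504 in ADAMTS5. On the other side of the overlap rule, the shared IGF2BP3 knockout peak with the shortest overlap had 100 bp in common with another list, at chr21:16377299-16377855.

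By window, the sites of the IGF2BP3 knockout list alone numbered 32 from 35 to 40 Mb, 20 from 25 to 30 Mb, 16 from 30 to 35 Mb and 13 from 40 to 45 Mb. They made up 23.5% of regions from 25 to 30 Mb, 21.2% from 20 to 25 Mb and 19.9% from 35 to 40 Mb. From 5 to 10 Mb they made up 4.03%, or 5 of 124 regions. This window was near the genome background of 4.90%. Every window beyond 10 Mb stood above it, with 14.6% (6 of 41) from 10 to 15 Mb, which still holds short-arm sequence, and the lowest being 7.60% from 40 to 45 Mb.

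Few of these sites were at gene starts. Of the 118, 8 (6.78%) lay within 1 kb of an annotated start, against 28.6% of chromosome 21 regions in all 4 lists and 5.21% of regions of the IGF2BP3 knockout alone on other chromosomes. Chromosome 21 regions of another single list were also seldom there, with 0% (control), 3.64% (IGF2BP1 knockout) and 3.85% (IGF2BP2 knockout). A gene of any kind overlapped 83 sites (70.3%), and a protein-coding gene overlapped 59 (50%), against 54.3% of regions in all 4 lists. Sites of the IGF2BP1 knockout alone overlapped a protein-coding gene in 47.3%, those of the IGF2BP2 knockout alone in 22.1%, and those of the IGF2BP3 knockout alone on other chromosomes in 42.2%. Whether a site was exonic or intronic was not determined.

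The widest site was chr21:20031023-20032213 (1191 bp), outside genes and 966 kb from the nearest protein-coding gene, NCAM2. The nearest peak of another list was 177 kb away. The next, chr21:16563275-16564347 (1073 bp), lay in MIR99AHG, the host transcript of the miRNAs miR-99a and let-7c. The third, chr21:35592891-35593933 (1043 bp), lay outside genes, 93.2 kb from a peak of another list, and the fourth, chr21:37207842-37208868 (1027 bp), covered the start of DSCR9. These 4 were the only ones of the 118 wider than 1 kb.

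Among the following sites at least 1 kb from other lists, chr21:25518487-25519467 (981 bp) lay in the non-coding gene LOC105372753 and chr21:15520945-15521906 (962 bp) outside genes. The site chr21:44058196-44059146 (951 bp) lay in TRAPPC10, a subunit of a vesicle tethering complex, 29.0 kb from a peak of another list. The site chr21:26556770-26557662 (893 bp) overlapped CYYR1 and its antisense transcript. The site chr21:25399354-25400238 (885 bp) lay in LINC00158. The last of the 10 widest, chr21:29939460-29940330 (871 bp), covered an end of GRIK1, a kainate-type glutamate receptor subunit.

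Protein-coding genes overlapped by the sites numbered 45, and most held 1. USP25, a deubiquitinase gene, had 1 peak over its body in the control, 1 in the IGF2BP1 knockout, 1 in the IGF2BP2 knockout and 4 in the IGF2BP3 knockout, of which 3 were in that list alone. MAP3K7CL had 4, 5, 4 and 7 peaks in the same order, and also 3 sites of the IGF2BP3 knockout alone. TSPEAR, whose body contains the KRTAP10 genes, had 4, 4, 2 and 7 peaks, again with 3 such sites. Those 3 are the peaks at KRTAP10-2 and KRTAP10-10, whose position is uncertain. GET1-SH3BGR, a readthrough gene, had 3, 3, 4 and 6 peaks and also 3 such sites. These 4 genes were named for holding the most sites of that list alone, which by itself raises its count.

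ERG, an ETS transcription factor of endothelial and blood stem cells, had 0 peaks over its body in the control, 1 in the IGF2BP1 knockout, 1 in the IGF2BP2 knockout and 3 in the IGF2BP3 knockout. One of the 3, chr21:38661346-38661754 (409 bp), lay 0.679 kb from an annotated start. GRIK1 had 1, 1, 2 and 4 peaks in the same order of lists. ADAMTS5, a secreted protease of cartilage matrix, had 0, 1, 0 and 3. CYYR1 had 0, 0, 1 and 2. These genes carried no or almost no peak in the control list. Each was named because it held 2 sites of the IGF2BP3 knockout alone, which by itself raises the count in that list over the control.

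Other long genes already held peaks in the control. Each of those named here also held at least 1 site of the IGF2BP3 knockout alone, which by itself raises its count in that list. KCNJ6, a potassium channel, had 5, 6, 6 and 8 peaks, DYRK1A, a protein kinase, 4, 3, 3 and 6, and ITSN1, an endocytic scaffold, 8, 8, 9 and 10. The DYRK1A counts depend on how its start peak was divided. That peak measured 1285 bp in the control and 2240 bp in the IGF2BP1 knockout. It was divided into peaks of 617 and 938 bp in the IGF2BP2 knockout, and of 594, 804 and 763 bp in the IGF2BP3 knockout. RUNX1, a blood transcription factor, had 4, 8, 11 and 8, so its highest count was in the IGF2BP2 knockout list. HLCS had 7, 14, 15 and 13, and TIAM1, an activator of RAC1, 8, 14, 13 and 15. APP, the amyloid precursor gene, had 6, 7, 6 and 6. It held 2 sites of the IGF2BP3 knockout alone and 2 regions that only this list lacked, so its count did not differ from the control.

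The 21 regions missing from the IGF2BP3 knockout list only had a different distribution. From 5 to 10 Mb there were 7 (5.6% of the window's regions), from 10 to 15 Mb 2 (4.88%) and from 40 to 45 Mb 6 (3.51%). The first 2 of these shares were near the genome background of 5.15%, and the third was below it. From 35 to 40 Mb, where the sites of the IGF2BP3 knockout alone were most numerous, there were 0. One of the 21, chr21:8438200-8438665, lay in the ribosomal RNA gene RNA45SN1, with peaks of 463, 458 and 376 bp in the other lists. Ribosomal RNA genes are repeated on the short arm, so the position of this region is uncertain. Another, chr21:42198915-42199692, lay at an end of ABCG1, a cholesterol exporter, with peaks of 464, 778 and 642 bp. None of the 21 lay within 1 kb of an annotated start, although ABCG1 has no entry in the table of starts.

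At the 385 regions present in all lists, median width was 890, 1023, 874 and 882 bp in that order of lists. The median log2 ratio of IGF2BP3 knockout to control width was 0.0032 (quartiles -0.18 and 0.17), against -0.032 on other sequences. Of the 385, 193 (50.1%, background 43.8%) were wider in the IGF2BP3 knockout. Against the IGF2BP2 knockout, the median log2 ratio was 0.046, against -0.028 elsewhere, and 230 regions (59.7%, background 44.6%) were wider in the IGF2BP3 knockout. Against the IGF2BP1 knockout, it was -0.13, against -0.17 elsewhere, with 105 regions (27.3%, background 22.5%) wider. By this ratio, chromosome 21 ranked 4, 5 and 2 among 23 chromosomes against the control, IGF2BP1 and IGF2BP2 knockouts. The quartile range at single regions was several times larger than these differences in medians.

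Of 239 protein-coding genes of chromosome 21, 183 had annotated starts in the RefSeq table. A peak lay within 1 kb of a start at 99 of them in the control (54.1%), 105 in the IGF2BP1 knockout (57.4%), at 55.2% of them in the IGF2BP2 knockout, and at 108 in the IGF2BP3 knockout (59.0%). Over the genome, the shares were 69.1, 71.0, 70.6 and 69.8%. In all 4 lists, 98 had one (53.6%, background 66.9%), and 12 differed between lists (background 6.08%). The gene was marked in the IGF2BP3 knockout list alone at 4 of 183 (2.19%, background 0.462%), namely ERG, KRTAP11-1, KRTAP10-2 and KRTAP10-10. No gene had a start peak in every list but the IGF2BP3 knockout (background 0.721%). For the other 56 genes, either gene end was used, so a peak at the 3′ end counted as well. Of these, 28 had a peak in the control, 35 in the IGF2BP1 knockout, 32 in the IGF2BP2 knockout and 36 in the IGF2BP3 knockout. Presence differed between lists at 12 of the 56 (background 9.42%). Here GRIK1 and S100B, a calcium-binding protein of astrocytes, were marked in the IGF2BP3 knockout alone (3.57%, background 1.06%), and ABCG1 in every list but it (1.79%, background 0.889%). Within 5 kb, ABCG1 was marked in all 4 lists.

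**Figure D5:**
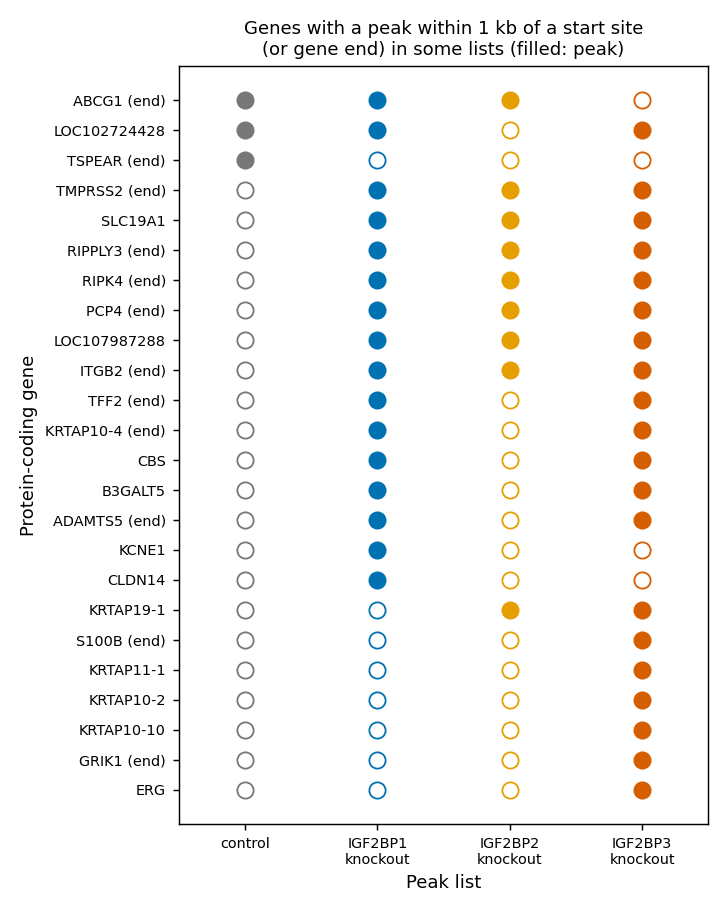
Protein-coding genes of chromosome 21 (vertical axis) with a peak within 1 kb of a start, or of a gene end where marked, in some lists but not all (filled circles) against the 4 lists (horizontal axis). The IGF2BP3 knockout column is filled at 20 of 24 genes and the control column at 3. The IGF2BP1 and IGF2BP2 knockout columns lie between these, each filled at more genes than the control column. By start, 54.1% of chromosome 21 genes were marked in the control and 59.0% in the IGF2BP3 knockout, against 69.1% and 69.8% over the genome. The chromosome was chosen for its share of the IGF2BP3 knockout list, so these counts were not tested.

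The gene lists below are set against the genome. By start, 69.1% of protein-coding genes were marked in the control and 69.8% in the IGF2BP3 knockout, and 6.08% differed between lists. By gene end, 58.1% and 59.6% were marked, and 9.42% differed. The lists are small and were chosen with earlier results known, so their counts are descriptions.

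The interferon receptor and antiviral list, in which IFNAR1 and IFNAR2 form the type I interferon receptor and MX1 and MX2 are interferon-induced GTPases, had peaks within 1 kb at 5 of 6 genes in every list, and MX2 had none. Within 5 kb, MX2 had a peak in the IGF2BP1 and IGF2BP2 knockout lists. At IFNAR1, the peak measured 1271, 1435, 1345 and 1303 bp in that order of lists. At IL10RB, the shared chain of the interleukin-10 and interferon-lambda receptors, it measured 1037, 1169, 899 and 1059 bp in the same order. This peak is also the one at the other end of IFNAR2, whose own outer peak measured 1533, 1520, 1522 and 1504 bp.

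At IFNGR2, a chain of the interferon-gamma receptor, widths were 1555, 1911, 1545 and 1685 bp in the control, IGF2BP1, IGF2BP2 and IGF2BP3 knockouts. At MX1, they were 840, 924, 975 and 482 bp. The MX1 peak was thus narrowest in the IGF2BP3 knockout list, where it spanned chr21:41420276-41420757, and MX1 also held 1 site of that list alone over its body.

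Of 18 transcription factor and chromatin genes, 15 were marked in the control, the IGF2BP1 knockout and the IGF2BP2 knockout and 16 in the IGF2BP3 knockout, the added gene being ERG, so that 1 of 18 differed. AIRE and DNMT3L were marked in none, though within 5 kb DNMT3L was marked in every list. At RUNX1, the start peak measured 2165 bp in the control list and 2198 bp in that of the IGF2BP1 knockout, against 2368 bp in that of the IGF2BP3 knockout. In the IGF2BP2 knockout it was divided into peaks of 709 and 912 bp. At SIM2, a neural transcription factor, the peak measured 1157, 1180, 1058 and 1419 bp, and in the IGF2BP3 knockout list it spanned chr21:36698457-36699875.

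Of 17 neural, synaptic and ion channel genes, 9 were marked in the control, 11 in the IGF2BP1 knockout, 10 in the IGF2BP2 knockout and 12 in the IGF2BP3 knockout, and 4 of 17 differed between lists. Of the 17, 13 were judged by start. GRIK1 and S100B were added in the IGF2BP3 knockout alone, with peaks of 871 and 606 bp. PCP4, a calmodulin-binding protein of neurons, was added in all 3 knockouts, with peaks of 727, 697 and 361 bp. Its IGF2BP3 knockout peak was not among the 39194 widest of that list, so with lists of equal length PCP4 was marked in the IGF2BP1 and IGF2BP2 knockouts only. KCNE1, a potassium channel subunit, was marked in the IGF2BP1 knockout alone, with a peak of 828 bp, but in every list within 5 kb. DSCAM, KCNE2, KCNJ15 and NCAM2 were marked in none at 1 kb, while within 5 kb KCNE2 was marked in every list and DSCAM in the IGF2BP1 and IGF2BP3 knockouts.

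Of 16 matrix, junction and secreted protease genes, 6 were marked in the control, 10 in the IGF2BP1 knockout, 7 in the IGF2BP2 knockout and 9 in the IGF2BP3 knockout, and 4 of 16 differed between lists. Of the 16, 10 were judged by either gene end. ADAMTS5 was marked in the IGF2BP1 knockout by a peak of 1055 bp and in the IGF2BP3 knockout by peaks of 985 and 1133 bp. TFF2, a trefoil peptide of mucus, had peaks of 816 and 507 bp in the same 2 lists. TMPRSS2, a surface serine protease, was marked in all 3 knockouts, with peaks of 1422, 1194 and 1251 bp, but within 5 kb it was marked in the control as well. CLDN14, a tight junction claudin, was marked in the IGF2BP1 knockout alone, and within 5 kb in the IGF2BP2 knockout too.

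Of 37 genes grouped here as housekeeping genes, without a check of their activity across tissues, 36 were marked in all 4 lists. The exception was CBS, with a peak of 2521 bp in the IGF2BP1 knockout and peaks of 871 and 650 bp in the IGF2BP3 knockout. The peaks of 2521 and 650 bp covered the CpG-rich promoter printed above, and the peak of 871 bp did not reach it. SLC19A1, the reduced folate carrier, was marked in each knockout list while the control had no start peak, with widths of 1697 bp in the IGF2BP1, 588 bp in the IGF2BP2 and 1012 bp in the IGF2BP3 knockout. It was singled out after its values were seen.

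Of 49 keratin-associated protein genes, none was marked in the control, 1 in the IGF2BP1 knockout, 1 in the IGF2BP2 knockout and 5 in the IGF2BP3 knockout. Of these 5, 3 were in the IGF2BP3 knockout alone, where the background was 0.462% of genes by start and 1.06% by gene end. KRTAP11-1 had a peak of 738 bp and KRTAP10-10 one of 790 bp, both in the IGF2BP3 knockout alone. KRTAP10-2 had peaks of 672 and 655 bp, also in that list alone. KRTAP10-4 had a peak of 1974 bp in the IGF2BP1 and 1347 bp in the IGF2BP3 knockout, and KRTAP19-1 one of 693 bp in the IGF2BP2 and 453 bp in the IGF2BP3 knockout. The other 44 genes of the group had no peak at a start or end in any list.

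The chromosome also carries miRNA genes, short regulators of messenger RNA whose seed (bases 2 to 8, in capitals) pairs with targets. let-7 miRNAs repress IGF2BP messenger RNAs in many tissues. let-7c and miR-99a are shown because a site of the IGF2BP3 knockout alone lay in their host transcript, and miR-802 as an example, chosen after its values were seen, of a miRNA gene whose nearest peak in that list was such a site.
let-7c-5p: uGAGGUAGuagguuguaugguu
miR-99a-5p: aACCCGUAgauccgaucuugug
miR-802: cAGUAACAaagauucauccuugu
No seed is shared among them.

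The let-7c hairpin at chr21:16539828-16539911 lay 47.2 kb from the nearest peak in the control, 48.15 kb in the IGF2BP1 knockout, 11.25 kb in the IGF2BP2 knockout and 11.6 kb in the IGF2BP3 knockout. The peaks nearest to it in the IGF2BP2 and IGF2BP3 knockouts were thus closer than in the other 2 lists, and the site of the IGF2BP3 knockout alone in MIR99AHG lay 23.4 kb away. The miR-802 hairpin at chr21:35720715-35720808 lay 219 kb from the nearest peak in the control, 204 kb in the IGF2BP1 knockout and 219 kb in the IGF2BP2 knockout, against 23.1 kb in the IGF2BP3 knockout. A site of that list alone was also its nearest peak to MIR4759 (7.70 kb), MIR6130 (62.4 kb) and MIR3156-3 (209.5 kb). The distance went the other way at MIR3118-1, with 51.45 kb in the control against 292 kb in the IGF2BP3 knockout, and at MIR8069, with 27.1 against 213 kb.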

How the data were processed

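ATAC-seq peaks of 9 libraries in 4 groups were used, as 1 deposited list per group. The authors deposited each list as 3 columns (chromosome, start, end) with no other value. Per the submitters' processing notes, fastp 0.24.1, BWA 0.7.17, MACS2 3.0.0, bedtools and the build GRCh38 were used; the threshold for peaks, the handling of the Tn5 offset and how libraries became 1 list are not given in the sources used here. Read depth is unknown, and depth and threshold bear on every count and width. Peaks were processed with Python 3.11.15, numpy 2.4.6, pandas 2.3.3 and scipy 1.17.1. Starts were read as 0-based and are printed from 1. Peaks with at least 1 bp in common were merged into regions, and the merging and overlap functions were tested on simulated data. Gene positions and starts come from RefSeq tables of GRCh38.p14, matched by gene ID. The members and gene lists were chosen with earlier results of these data known. Named items were the widest 10 sites of the IGF2BP3 knockout list alone at least 1 kb from other lists, coding genes marked in that list alone or in every list but it, listed genes that differed, and the interferon list. Alternatives covered list length, merging and trimming of peaks, gene distance, window position, the pseudocount and the chromosome arm. No test across libraries was possible. Some marker genes are not reported here.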

Additional observations from a re-analysis of the deposited data

Results flagged for a closer look

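In 6 windows of 5 Mb, the share of peaks against the control moved up in the IGF2BP3 knockout list and down in another knockout list. Each group is 1 list, the lists share the control, and these differences were not tested. Against the IGF2BP1 knockout, this was seen from 10 to 15 Mb, with a difference in log2 share of 0.652 (0.35 against -0.302). Against the IGF2BP2 knockout, it was seen in every window from 25 Mb on. The differences were 0.571 from 25 to 30 Mb, 0.66 from 30 to 35 Mb, 0.801 from 35 to 40 Mb, 0.528 from 40 to 45 Mb and 0.428 in the last window.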

How the results depend on the processing

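No paired analysis was possible because each group has 1 list, without values per library, and leaving out a library was not possible for the same reason. The share of the IGF2BP3 knockout list on chromosome 21 moved from 1.62% to 1.36% among peaks within 1 kb of a gene start or end and to 1.37% on the long arm from 15 Mb, where fewer peaks are counted over the same list. The ratio of shares on the long arm was 1.40 against the control, 1.29 against the IGF2BP1 knockout and 1.455 against the IGF2BP2 knockout. Its ratio to the other lists at gene starts and ends was 1.19 against the control, 1.12 against the IGF2BP1 knockout and 1.10 against the IGF2BP2 knockout, lower than for all peaks (1.31, 1.28 and 1.36). When every list was cut to its 39194 widest peaks, regions missing from the IGF2BP3 knockout list only numbered 13 in place of 21. They made up 1.64% of chromosome 21 regions, against 3.39% on other sequences. Regions in the control and IGF2BP3 knockout alone numbered 33 in place of 16. Their share was 4.17% against 3.38% elsewhere, so the ratio of these shares fell from 3.26 to 1.23. Regions in all 3 knockouts alone numbered 46 in place of 91. Their share was 5.81% against 3.915% elsewhere, a ratio of 1.48 in place of 1.395. The log2 share from 20 to 25 Mb against the IGF2BP2 knockout changed sign, from -0.09 to 0.23. On the long arm, a choice made after the values were seen, 12 regions were missing from the IGF2BP3 knockout list only (1.52%, against 5.19% on other sequences). Sites of the IGF2BP3 knockout alone numbered 128 with the widest peaks (16.2%, against 7.10% on other sequences). Of these, 87 were also alone in the full lists. With peaks trimmed to 200 bp, there were 137 (13.1%, against 6.25%). The ratios of these shares were 2.28 and 2.09, below the 2.58 of the main setting. Of 58 values of the main results recomputed, 49 stayed within the margins set for them. Of the values for single genes and windows, 251 stayed within their margins, 18 moved and 1 changed sign; those that moved were numbers of lists marking a gene, most of them within 5 kb. Depth is unknown, so a site missing from a list may lie under its threshold.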
